A study of Homo sapiens with 6 samples.

Results

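The genes described here are 10 that mark lung epithelium, in cells labelled as the kidney tubule line HK-2. They are the transcription factors NKX2-1, FOXA1 and FOXA2, the surfactant proteins SFTPB and SFTPC, the surfactant-associated gene SFTA3, the protease NAPSA, the lipid transporter ABCA3, the lysosomal membrane protein LAMP3 and the receptor AGER. They were found by gene name in a table of 33392 rows, where the 10 genes have 11 rows because SFTA3 appears under 2 identifiers. The genes were picked by name after the high level of NKX2-1 in these cells had been seen, so their levels are a description without a test.

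RNA sequencing covered 6 HK-2 libraries. HK-2 is an immortalised epithelial line derived from human kidney proximal tubule. Most renal tubule markers measured here went against that name. Of 15 renal tubule rows 13 were below 0.5 FPKM in every library, with HNF4A and PAX2 at or near 0. NKX2-1 was above 20 FPKM, but the genes were picked after its level had been seen, so it is not counted as support. Of 16 rows of further lung epithelium genes 8 were also below 0.5 FPKM in every library. The cell type is therefore given from the labels alone, and the identity of the cells was not tested. Every culture received TGF-β1, a cytokine that drives matrix production and dedifferentiation of tubule cells, and all libraries are labelled 48 h. The groups are a scramble siRNA (3 libraries) and an siRNA to DYRK2 (siDYRK2, 3 libraries), DYRK2 being a serine/threonine kinase of the dual-specificity family. No group without TGF-β1 was analysed here, the line is a single one, and the labels do not say that replicates came from separate cultures, so p-values measure only the spread between these libraries, which may be technical.

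NKX2-1, also called TTF-1, is a homeodomain factor of lung, thyroid and ventral forebrain, and it is used in pathology as a marker of lung adenocarcinoma. In the alveolar type II cell it acts with the forkhead factors FOXA1 and FOXA2 on the genes of surfactant, the film of lipid and protein that lowers surface tension in the alveolus. SFTPB and SFTPC are made as precursors, cut by proteases that include NAPSA, and stored with lipid in lamellar bodies, which ABCA3 fills and LAMP3 lines. AGER, the receptor for advanced glycation end products, is the usual marker of the flat alveolar type I cell. The adult proximal tubule is identified instead by factors such as HNF4A and PAX8 and by the uptake receptors LRP2 and CUBN.

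RefSeq promoter windows on GRCh38.p14 were at hand for 7 of the 10 genes, in 11 windows. The stretches below show where short words known from the binding sites of these factors lie before RefSeq starts of NKX2-1, SFTA3, FOXA1 and SFTPB. The words searched on both strands in the 250 bases before each start were TCAAG, the core of NKX2-type sites, and TGTTTA and TGTTTG, forkhead words. They were chosen after the windows had been read, and none overlaps another in these stretches. Each line is written 5′ to 3′ on the strand of the gene, with the word or its reverse complement in capitals.
NKX2-1 and SFTA3, shared window, chr14:36519670-36519698, minus strand: gaaacttaaaggTGTTTAccttgtcatca
FOXA1, distal word, chr14:37595467-37595495, minus strand: tacactgctttgCAAACAaagtgagggcc
FOXA1, proximal word, chr14:37595278-37595306, minus strand: ggaggtgggcacTCAAGcgacgtaagatc
SFTPB, distal word, chr2:85668297-85668325, minus strand: gaaaaggtgggaTCAAGcacctggagggc
SFTPB, proximal word, chr2:85668265-85668293, minus strand: tcagagcaaagaCAAACActgaggtcgct

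The first stretch belongs to NKX2-1 and SFTA3 alike, since RefSeq gives both genes a start with the same window. In the window of FOXA1 and in 1 of the windows of SFTPB the NKX2-type core and a forkhead word occur together, a pair found in 7.82% of 34943 windows of the same length. TCAAG alone occurs in 29.2% of them, TGTTTA in 11.0% and TGTTTG in 12.8%. In SFTPB the NKX2-type core begins 114 bases and the forkhead word 82 bases before the start. Words not printed above were TGTTTG in another NKX2-1 window, TCAAG in a window of SFTA3 alone and TCAAG in a window of NAPSA. Every window with a word lies over annotated GENCODE v29 exons. For FOXA1, SFTPB and NKX2-1 these include exons of the same gene, so the RefSeq starts lie inside the gene spans given below. The window shared by NKX2-1 and SFTA3 lies over exons of NKX2-1 and NKX2-1-AS1, outside the SFTA3 span given below. The NAPSA window with TCAAG lies outside the NAPSA span, over exons of AC008655.2 only. The windows of ABCA3 and AGER held none of these words. A match describes the letters only and is not evidence of binding.

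The libraries carried the labelled knockdown. DYRK2 stood at 5.84, 6.06 and 5.96 FPKM with scramble and at 1.45, 1.54 and 1.49 FPKM with siDYRK2, or 25.1% of the scramble mean (log2 difference −1.69, SE 0.0513, limma adjusted p = 2.0e-06). By exact two-sided permutation p was 0.1, the smallest value that 3 against 3 libraries allow. FPKM, fragment abundance per transcript length and per library total, summed to between 252318 and 255378 per library, and the number of fragments behind them is unknown. The 15121 genes whose mean reached 0.5 FPKM were tested on log2(FPKM + 0.5), a scale that understates the change of low genes, and a gene is called when its adjusted p is under 0.05.

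At this threshold 38.3% of all tested genes were called, 20.4% higher and 17.9% lower in siDYRK2, and for 51.7% of genes the ranges in scramble and siDYRK2 were separate. Of the 11 rows 8 passed the filter and were tested. Of these 8, 4 were called lower (NKX2-1, FOXA1, NAPSA and AGER), 1 was called higher (ABCA3), and 3 were not called (SFTPB, SFTA3 and LAMP3). The ranges were separate for 6 of the 8. The median log2 difference was −0.12, against 0.01 over all tested genes, and the median absolute difference was 0.17, the same as over all tested genes to that precision. FOXA2, SFTPC and the second SFTA3 row were under the filter.

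**Figure D1:**
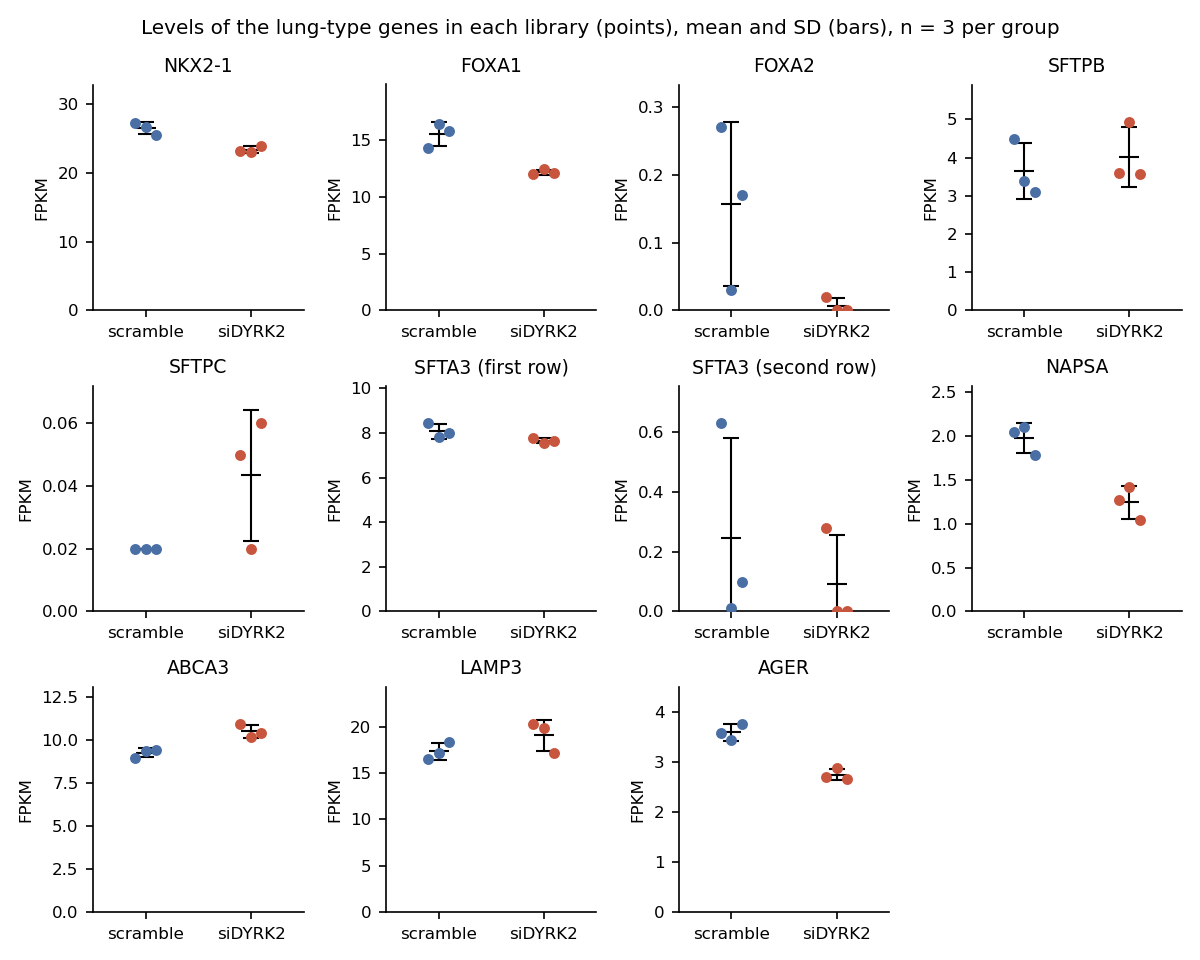
FPKM of each of the 11 rows (vertical axes, each from 0) in the scramble and siDYRK2 libraries; points are libraries, and bars give the mean and SD (n = 3). NKX2-1, FOXA1, NAPSA and AGER sit lower in all 3 siDYRK2 libraries and ABCA3 sits higher, whereas SFTPB and LAMP3 overlap, and FOXA2, SFTPC and the second SFTA3 row lie near 0.

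The factor NKX2-1 was the most abundant of the 10 genes. NKX2-1 (ENSG00000136352; GRCh38 chromosome 14, 36516392 to 36521149, minus strand) stood at 27.3, 26.7 and 25.5 FPKM with scramble and at 23.2, 23.1 and 24.0 FPKM with siDYRK2. Every siDYRK2 library lay below every scramble library, by a small margin. In each library between 94.6% and 95.8% of all rows had a lower value. The mean fell from 26.5 ± 0.895 to 23.4 ± 0.472 FPKM (SD, n = 3), which is 88.3% of the scramble mean, with a log2 difference of −0.17 (SE 0.0363, limma adjusted p = 0.0081). In bulk RNA fewer cells that express a gene and less RNA per cell cannot be told apart. NKX2-1-AS1, an antisense RNA that shares 402 exonic bases with NKX2-1, stood at 0.720 to 1.47 FPKM over the 6 libraries. Strand use is not given in the sources used here, so reads in the shared bases cannot be assigned.

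FOXA1 was lower by a larger factor than NKX2-1 in the group means. FOXA1 (ENSG00000129514; chromosome 14, 37589984 to 37596059, minus strand), a pioneer factor that opens chromatin in several epithelia, stood at 14.4, 16.4 and 15.9 FPKM with scramble and at 12.0, 12.5 and 12.2 FPKM with siDYRK2. The siDYRK2 libraries were tightly grouped and all lay below the scramble libraries. The mean fell from 15.6 ± 1.06 to 12.2 ± 0.235 FPKM (SD, n = 3), a log2 difference of −0.34 (SE 0.0529, limma adjusted p = 0.0025). As a share of NKX2-1 in the same library, however, FOXA1 was at 52.6%, 61.5% and 62.1% with scramble and at 51.6%, 54.0% and 50.7% with siDYRK2, so the groups overlapped on this ratio.

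Of the FOXA paralogs only FOXA1 was well expressed here. FOXA2 (chromosome 20, 22581005 to 22585455, minus strand), which acts beside FOXA1 in lung and liver, was listed at 0.27, 0.03 and 0.17 FPKM with scramble and at 0.02, 0 and 0 FPKM with siDYRK2. The groups did not overlap, and the scramble libraries were spread widely. The siDYRK2 values lie at the rounding of the table, so no fold is given. In a fit without the filter its adjusted p was 0.19 by limma. FOXA3, the third paralog, stood at 0.203 ± 0.115 and 0.347 ± 0.0814 FPKM (SD, n = 3) and so was under the filter too.

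Among the surfactant proteins SFTPB was present and SFTPC nearly absent. SFTPB (ENSG00000168878; chromosome 2, 85657314 to 85668741, minus strand), the small hydrophobic protein without which surfactant does not spread, stood at 4.48, 3.38 and 3.10 FPKM with scramble and at 3.59, 4.93 and 3.56 FPKM with siDYRK2. The highest value of each group was well above the other 2, and the groups overlapped. The means were 3.65 ± 0.730 and 4.03 ± 0.783 FPKM (SD, n = 3), and the log2 difference of 0.12 was not called (95% interval −0.24 to 0.49, limma adjusted p = 0.56). That interval covers differences in either direction, and without siDYRK2 replicate 2 the difference was −0.013.

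SFTPC, the surfactant protein made in the adult lung almost only by alveolar type II cells, was listed at 0.02 FPKM in every scramble library and at 0.05, 0.02 and 0.06 FPKM with siDYRK2. These values are a few units of the last printed decimal, and no fold is given. The other surfactant protein genes were low as well. SFTPD stood at 0.283 ± 0.0551 and 0.247 ± 0.0153 FPKM (SD, n = 3), SFTPA2 reached at most 0.02 FPKM, and SFTPA1 had no row.

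SFTA3, a gene next to NKX2-1 whose product has been described as surfactant-associated, has rows under 2 identifiers. The first (ENSG00000229415; chromosome 14, 36473288 to 36513829, minus strand) stood at 8.44, 7.81 and 7.98 FPKM with scramble and at 7.79, 7.56 and 7.62 FPKM with siDYRK2. The groups were apart by 0.02 FPKM at their nearest, and the log2 difference of −0.07 was not called (95% interval −0.17 to 0.03, limma adjusted p = 0.23). The second (ENSG00000257520, which GENCODE v29 lists as the processed transcript AL132857.1) was at 0.63, 0.01 and 0.10 FPKM with scramble and at 0.28, 0 and 0 FPKM with siDYRK2. The 2 rows share 981 exonic bases, so the split of reads between them is uncertain, and the libraries with the highest value of the second row also had the highest value of the first row in their group. Summed over both rows, SFTA3 stood at 9.07, 7.82 and 8.08 FPKM with scramble and at 8.07, 7.56 and 7.62 FPKM with siDYRK2, which overlap.

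NAPSA showed the largest difference of the 8 tested genes on this scale. NAPSA (ENSG00000131400; chromosome 19, 50358477 to 50365830, minus strand) encodes napsin A, an aspartic protease of type II cells that trims the SFTPB precursor and that pathologists use beside NKX2-1. It stood at 2.05, 2.10 and 1.78 FPKM with scramble and at 1.27, 1.42 and 1.04 FPKM with siDYRK2. All siDYRK2 libraries were below all scramble libraries. The mean fell from 1.98 ± 0.172 to 1.24 ± 0.191 FPKM (SD, n = 3), to 62.9% of the scramble mean, with a log2 difference of −0.51 (SE 0.104, limma adjusted p = 0.0074). Its pseudogene NAPSB was at 0.107 ± 0.0666 and 0.0733 ± 0.0404 FPKM (SD, n = 3), and how reads were divided between the pair is not given in the sources used here.

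ABCA3 was the only one of the 8 tested genes called higher. ABCA3 (ENSG00000167972; chromosome 16, 2275881 to 2340746, minus strand), which pumps phospholipid into the lamellar body, stood at 8.97, 9.37 and 9.45 FPKM with scramble and at 10.9, 10.2 and 10.4 FPKM with siDYRK2. The groups did not overlap. The mean rose from 9.26 ± 0.257 to 10.5 ± 0.369 FPKM (SD, n = 3), a log2 difference of 0.17 (SE 0.0424, limma adjusted p = 0.015). The call was narrow and was lost without scramble replicate 1 (adjusted p = 0.0502) and without siDYRK2 replicate 1 (adjusted p = 0.054).

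LAMP3 was second to NKX2-1 in level. LAMP3 (ENSG00000078081; chromosome 3, 183122213 to 183163839, minus strand) is a lamellar body protein in type II cells, and it is also known as a marker of mature dendritic cells and as an interferon-inducible gene. It stood at 16.5, 17.1 and 18.3 FPKM with scramble and at 20.3, 19.8 and 17.2 FPKM with siDYRK2. The siDYRK2 replicate 3 lay inside the scramble range and the other siDYRK2 libraries above it. The log2 difference of 0.13 was not called (95% interval −0.03 to 0.29, limma adjusted p = 0.17), and it was called without siDYRK2 replicate 3 (log2 difference 0.21, adjusted p = 0.024). Dendritic cell and interferon genes were looked at beside it. CCR7, a receptor of mature dendritic cells, reached at most 0.02 FPKM, and PTPRC, the common leukocyte antigen, had no row. CD83, a marker of mature dendritic cells that other cells also express, was present in every library, at 5.69 to 6.62 FPKM with scramble and 5.93 to 6.29 FPKM with siDYRK2, and was not called (limma adjusted p = 0.93). Of 6 tested interferon-stimulated genes 0 were called higher and 1, IFIT3, lower, and the IFIT3 call was lost when any library other than scramble replicate 3 or siDYRK2 replicate 2 was left out (adjusted p 0.069 to 0.081). Over all tested genes 20.4% were called higher and 17.9% lower, with a median log2 difference of 0.01. The median of the 6 was −0.25. Of those not called, ISG15 was called lower without scramble replicate 1 (−0.33, adjusted p = 0.049), IRF7 without siDYRK2 replicate 1 (−0.37, adjusted p = 0.035) and MX1 without the mean-variance trend (−0.24, adjusted p = 0.037).

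AGER, the type I cell marker, was expressed at a few FPKM and was lower with siDYRK2. AGER (ENSG00000204305; chromosome 6, 32180968 to 32184324, minus strand) stood at 3.58, 3.44 and 3.76 FPKM with scramble and at 2.71, 2.88 and 2.67 FPKM with siDYRK2. No siDYRK2 library reached the lowest scramble value. The mean fell from 3.59 ± 0.160 to 2.75 ± 0.112 FPKM (SD, n = 3), to 76.6% of the scramble mean, with a log2 difference of −0.33 (SE 0.0576, limma adjusted p = 0.0038). AGER lies between RNF5 and PBX2, with which it shares no exonic base in GENCODE v29. RNF5 stood at 34.0 ± 1.34 and 40.9 ± 1.09 FPKM and PBX2 at 23.1 ± 0.835 and 21.8 ± 0.361 FPKM (SD, n = 3).

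**Figure D2:**
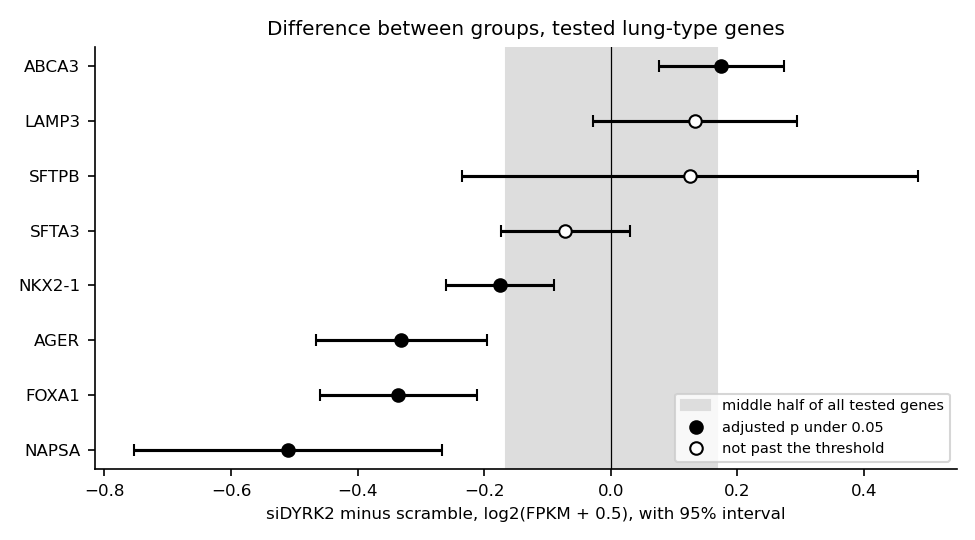
Difference in log2(FPKM + 0.5), siDYRK2 minus scramble (horizontal axis), for the 8 tested genes (vertical axis), with 95% intervals from limma; filled points have an adjusted p under 0.05, and the grey band holds the middle part of all tested genes, from the lower to the upper quartile, −0.17 and 0.17. The whole intervals of NAPSA, FOXA1 and AGER lie below the band, the points of NKX2-1 (−0.17) and ABCA3 (0.17) lie just outside it with intervals that reach into it, and the interval of SFTPB is the widest.

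The order of levels was alike in both groups for the 8 tested genes. From high to low it ran NKX2-1, LAMP3, FOXA1, ABCA3, SFTA3 (first row), SFTPB, AGER and NAPSA, in scramble as in siDYRK2. Within the scramble libraries SFTPB (3.10 to 4.48 FPKM) and AGER (3.44 to 3.76 FPKM) could not be told apart by their ranges, and no other neighbours among the 8 overlapped. With siDYRK2 the ranges of SFTPB and AGER were separate as well.

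Each of the 7 other tested genes was set against NKX2-1 in the same library, which cancels any factor common to a whole library. Ranges were separate for 4 of the 7 ratios, against 57.6% of 15120 tested genes set against NKX2-1 in the same way. ABCA3 was at 32.9%, 35.1% and 37.0% of NKX2-1 with scramble and at 47.0%, 44.3% and 43.5% with siDYRK2. All 3 siDYRK2 ratios thus lay above all 3 scramble ratios. NAPSA went the other way, from 7.51%, 7.87% and 6.97% to 5.46%, 6.16% and 4.34% of NKX2-1. The exact two-sided permutation p was 0.1 for both, the smallest possible, and 0.175 after adjustment over the 7 ratios. AGER (13.6% to 11.8% of NKX2-1 in the group means) and the first SFTA3 row (30.5% to 32.7%) were the others without overlap. NKX2-1 was itself called lower, which raises every ratio with siDYRK2. In FPKM the first SFTA3 row was not higher with siDYRK2 (7.56 to 7.79, against 7.81 to 8.44 with scramble).

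Other genes of lung epithelium were present only in part. Of 26 further genes, 16 had a row and 7 had a mean of at least 0.5 FPKM, while 10 had no row, among them SCGB1A1, the secretory protein of club cells. The rows that were highest were LPCAT1, an acyltransferase of surfactant lipid (57.6 ± 5.19 and 50.0 ± 1.17 FPKM), and CAV1, the caveolar coat protein that is abundant in type I and many other cells (57.2 ± 3.48 and 31.0 ± 1.54 FPKM, SD, n = 3). LMO3, a cofactor known as a target of NKX2-1 in lung tumours, stood at 11.4 ± 0.838 and 9.78 ± 0.549 FPKM (SD, n = 3). CLDN18, a tight junction protein of alveolar cells, reached at most 0.07 FPKM, and HOPX, a type I cell factor, at most 0.06 FPKM. SLC34A2, on the same list, stood at 0.263 ± 0.0586 FPKM with scramble and 0.603 ± 0.0907 FPKM with siDYRK2 (SD, n = 3). SLC34A2 and HOPX were higher with siDYRK2 without overlap of the groups, but both were under the filter and not tested. The other rows of this list under the filter overlapped between the groups.

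Of these 7 tested lung genes 4 were called lower and 1 higher, with a median log2 difference of −0.20, against 17.9% lower, 20.4% higher and a median of 0.01 over all tested genes. CAV1 fell most (log2 difference −0.87, limma adjusted p = 4.3e-05), and EMP2, a membrane protein of type I cells, rose (0.55, limma adjusted p = 5.0e-04). LPCAT1 (−0.20), LMO3 (−0.21) and CPM (−0.23), a membrane carboxypeptidase, fell by margins that were not stable. LPCAT1 lost its call when any library other than scramble replicate 3 was left out (adjusted p 0.0502 to 0.10), CPM when any library other than scramble replicate 3 was left out (0.056 to 0.13), and LMO3 without scramble replicate 1 or 2 or siDYRK2 replicate 1 or 3 (0.11 to 0.12). CTSH, a cathepsin that also trims surfactant precursors, and MUC1, an epithelial mucin, were not called, though MUC1 was called higher without siDYRK2 replicate 3 (0.24, adjusted p = 0.046).

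Factors known to work beside NKX2-1 in the lung went both ways. Of 22 listed, 20 had a row and 14 were tested. Of these 14, 5 were called higher and 4 lower, against 20.4% higher and 17.9% lower over all tested genes. The median log2 difference of the 14 was 0.01, the same as over all tested genes to that precision. WWTR1, or TAZ, a coactivator of NKX2-1 and of TEAD factors, fell from 22.9 ± 0.331 to 12.4 ± 0.459 FPKM (SD, n = 3) with a limma adjusted p of 9.8e-06, while TEAD1 rose from 22.1 ± 0.386 to 26.2 ± 0.511 FPKM. SOX9, a factor of the distal lung bud and of injured tubules, fell from 6.14 ± 0.273 to 3.20 ± 0.230 FPKM, and ELF3 from 3.50 ± 0.123 to 1.69 ± 0.220 FPKM (SD, n = 3). NFIB, a factor of lung maturation, fell as well (−0.41). TFCP2L1 rose from 1.55 ± 0.0800 to 2.63 ± 0.150 FPKM and ID2, a marker of the lung bud tip, from 0.697 ± 0.0850 to 2.12 ± 0.130 FPKM (SD, n = 3).

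GATA6, a partner of NKX2-1 on surfactant promoters, stood at 4.78 ± 0.603 and 4.89 ± 0.0907 FPKM, and the ETS factor ETV5, which maintains type II cells, at 27.7 ± 1.76 and 28.8 ± 0.144 FPKM (SD, n = 3). Neither was called. CEBPD rose (0.23, limma adjusted p = 0.0077), and ETV4 was called higher by 0.15 (adjusted p = 0.039), a call lost without scramble replicate 2 or 3 or siDYRK2 replicate 1 or 3 (adjusted p 0.078 to 0.13). CEBPA, the relative of CEBPD that drives type II cell maturation, stood at 4.89 ± 0.685 and 3.99 ± 0.745 FPKM (SD, n = 3), was not called (adjusted p = 0.16) and was called lower without siDYRK2 replicate 1 (adjusted p = 0.036). KLF5 was not called (adjusted p = 0.14) but was called lower without scramble replicate 3 (adjusted p = 0.022), and FOXP4 was not called. SOX2, the factor of the proximal airway, reached at most 0.02 FPKM.

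**Figure D3:**
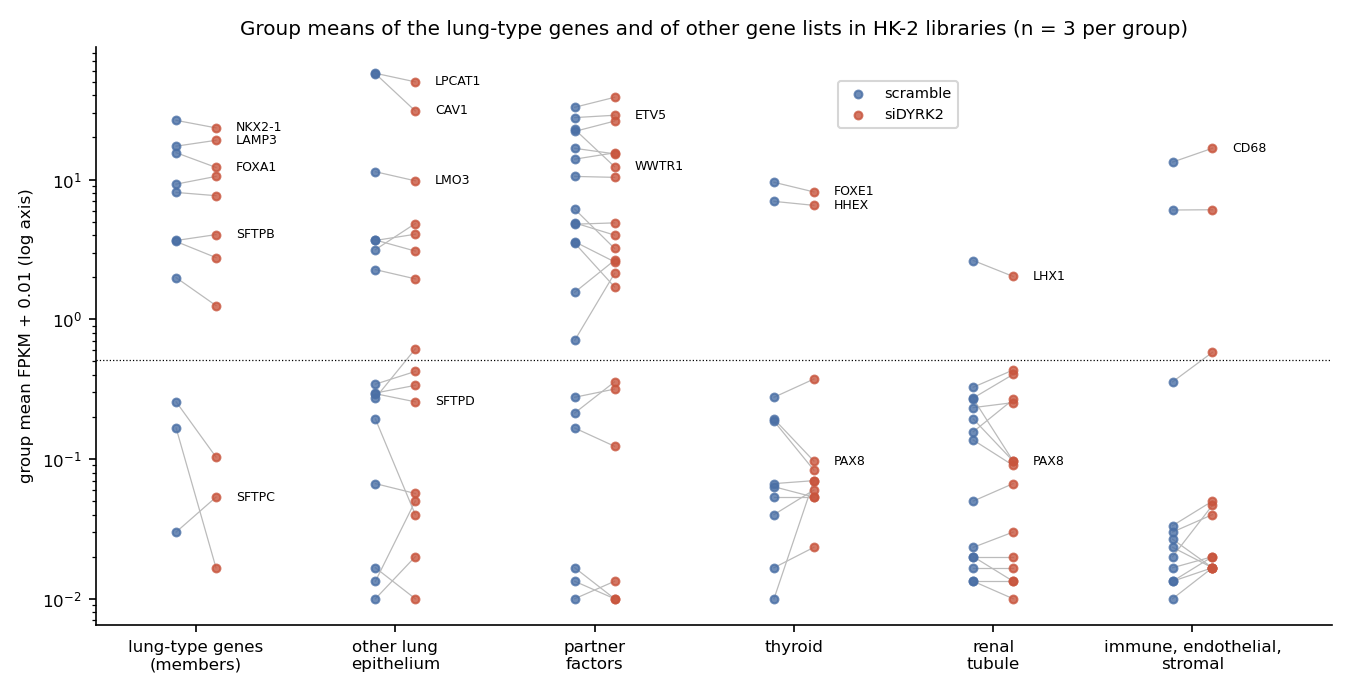
Group mean FPKM plus 0.01 on a log axis (n = 3 per group) for the lung-type genes and 5 other lists; lines join the scramble and siDYRK2 mean of a gene, and the dotted line marks 0.5 FPKM, the level for testing. Most lung-type genes lie above the line, most thyroid and renal tubule genes below it. The lung-type genes were picked after the level of NKX2-1 had been seen, so this contrast is no test.

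Markers of the tissue named in the labels were mostly low. Of 21 genes of the renal tubule 15 had a row, and 13 of these were below 0.5 FPKM in every library. PAX2 and HNF4A were listed at no more than 0.01 and 0.02 FPKM, CUBN at 0.07 to 0.14 FPKM, and LRP2 had no row. PAX8, shared by kidney and thyroid, stood at 0.183 ± 0.00577 and 0.0867 ± 0.00577 FPKM (SD, n = 3), far under NKX2-1. LHX1, a factor of the developing nephron, passed the filter and fell from 2.62 ± 0.106 to 2.02 ± 0.0981 FPKM (SD, n = 3), with a limma adjusted p of 0.0071. The summed level of the 15 rows was 3.92 to 4.51 FPKM with scramble and 3.5 to 4 FPKM with siDYRK2.

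The thyroid, where NKX2-1 is also a lineage factor, was checked by 11 genes, all with a row, of which 9 were below 0.5 FPKM in every library. FOXE1, the thyroid forkhead factor, stood at 9.55 ± 0.394 and 8.15 ± 0.431 FPKM (SD, n = 3) and fell (−0.22, limma adjusted p = 0.015), a call lost without scramble replicate 2 (0.052) or siDYRK2 replicate 1 (0.051). HHEX was at 6.97 ± 0.611 and 6.53 ± 0.472 FPKM (SD, n = 3), with no call. TG, thyroglobulin, reached at most 0.07 FPKM. FOXE1 and HHEX, factors that occur with NKX2-1 in the thyroid, were thus above 5 FPKM, while the factor PAX8 and the product TG were not. NKX2-1 is not counted here, since the genes were picked after its level had been seen.

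Markers of immune, endothelial and stromal cells were at or near 0 with few exceptions. Of 12 rows 9 were at no more than 0.1 FPKM in every library, PECAM1 among them. COL1A1 was under the filter at 0.347 ± 0.0208 and 0.570 ± 0.0557 FPKM (SD, n = 3). CD68, a lysosomal protein also found outside macrophages, stood at 11.1, 11.4 and 17.5 FPKM with scramble and at 17.0, 16.3 and 16.9 FPKM with siDYRK2. It was not called (adjusted p = 0.12), but without scramble replicate 3 it was called higher (log2 difference 0.55, adjusted p = 3.0e-04). CD83, the dendritic cell marker, was at 6.04 ± 0.504 and 6.07 ± 0.193 FPKM (SD, n = 3).

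The region of chromosome 14 around NKX2-1 held several expressed genes. MBIP, whose protein binds a MAP3K and which starts at −200.5 kb from the NKX2-1 start in chromosome coordinates, stood at 19.1 ± 0.849 and 18.7 ± 0.597 FPKM (SD, n = 3), with no call. NKX2-8, a relative of NKX2-1 that lies 61.5 kb after it, fell from 9.28 ± 0.509 to 7.32 ± 0.375 FPKM (SD, n = 3), with a limma adjusted p of 0.0037. PAX9, a paired-box factor of the pharyngeal pouches 136.4 kb away, went the other way, from 1.78 ± 0.162 to 2.77 ± 0.190 FPKM (limma adjusted p = 0.0022). SLC25A21, a mitochondrial carrier, fell from 25.1 ± 1.19 to 21.8 ± 0.768 FPKM, and BRMS1L, a subunit of a histone deacetylase complex, rose from 11.2 ± 0.737 to 14.6 ± 1.14 FPKM (SD, n = 3). RALGAPA1 and NKX2-1-AS1 were not called. Of the 8 tested rows in this list, SFTA3 included, 2 were called higher and 2 lower, against 20.4% and 17.9% over all tested genes.

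**Figure D4:**
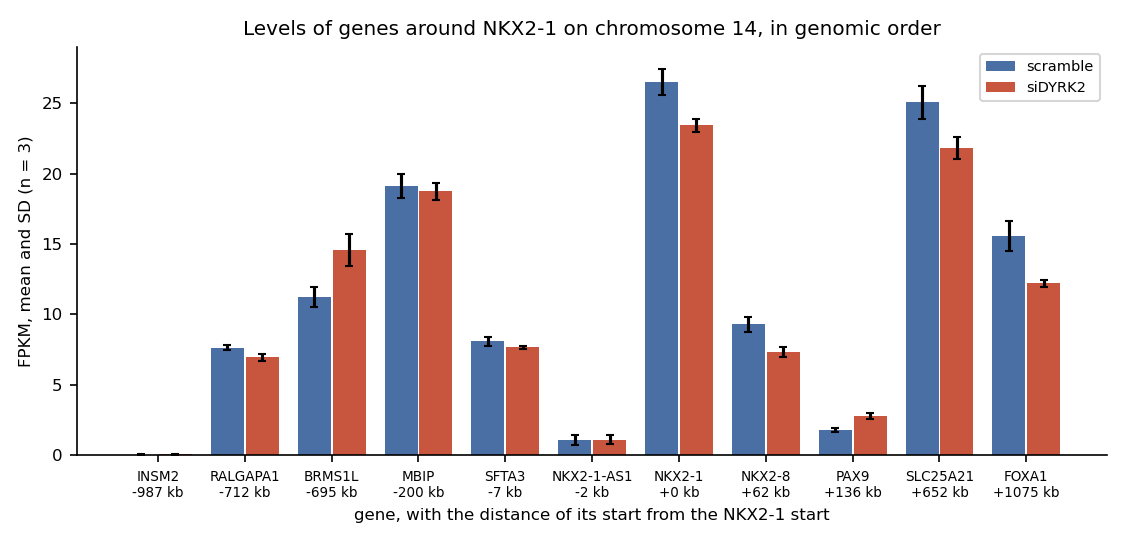
Mean FPKM and SD (n = 3 per group) of genes around NKX2-1 on chromosome 14, in the order of their starts, with the distance in kb below each name; FOXA1, 1074.9 kb away, closes the row. NKX2-1 and SLC25A21 are the highest, and INSM2 and NKX2-1-AS1 are at or under about 1 FPKM.

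The genes whose values over the 6 libraries lay nearest to NKX2-1, by the mean absolute difference of log2(FPKM + 0.5), were KEAP1 (0.0334), NXN (0.0410) and DPM3 (0.0416). KEAP1 ranged from 22.6 to 26.4 FPKM.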

How the data were processed

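Per the labels' protocols, total RNA of HK-2 cells was treated with DNase and sequenced by a provider with Illumina chemistry. HISAT2, StringTie and GRCh38 stand in the submitters' processing notes. Not given in the sources used here: versions, annotation, strand use, handling of multiply mapped reads. The deposited values are FPKM computed by the authors and rounded to 2 decimals, with a column for each library per the file headers. Library names tied all 6 columns to the labels. Whole reads could not be recovered. FPKM times length lay within 0.1 of a whole number for 26.2% to 30.0% of low values at the best step. By chance 20% would do so at a step fixed in advance, and the chance share at the best of many steps is higher. Depth thus remains unknown and counting intervals are left out.

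The 15121 genes whose mean reached 0.5 FPKM were tested with limma 3.58.1 under R 4.3.3, on log2(FPKM + 0.5) (mean-variance trend, no covariate, Benjamini-Hochberg over all tested genes at 0.05). In simulated data with 15121 genes, 30% of changes of 0.25 on the log2 scale, 66% of 0.5, 88% of 1 and 92% of 2 were recovered. There were 4 false among 142 calls. Far fewer genes were changed in the simulation than the 38.3% called in the data, so these rates do not carry over to the comparison. Ratios and words were computed in Python 3.11.15. Coordinates and exon overlaps are from GENCODE v29 on GRCh38, promoter windows from RefSeq. The genes and lists were chosen with earlier results of these data known, and so were the tests. Named genes are the 10 members, DYRK2 and the members of the other lists with a mean of at least 0.5 FPKM. Markers at or near 0 and the 3 nearest profiles to NKX2-1 are named as well. FOXA3, SOX2, CLDN18, HOPX, SLC34A2, CCR7, INSM2, NAPSB, RNF5 and PBX2 were added after their values were seen. Some genes of the lists are not reported here and are in none of the counts and sums by list. The 14 alternatives are another pseudocount, filter, scaling or variance model, a replicate block, and each library left out.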

Additional observations from a re-analysis of the deposited data

How the results depend on the processing

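The 4 calls of lower expression among the lung-type genes (NKX2-1, FOXA1, NAPSA and AGER) held in all 14 alternatives, with the same sign. NKX2-1 ranged from −0.20 to −0.15, and NAPSA from −0.64 to −0.41. The count of lung-type genes called higher, 1 as reported, ranged from 0 to 2 when libraries were left out and was 0 with the replicate block, where ABCA3 had an adjusted p of 0.052; the LAMP3 call without siDYRK2 replicate 3 made the 2. SFTPB and SFTA3 were called in none of the 14 by limma; SFTPB ranged from −0.013, without siDYRK2 replicate 2, to 0.26. The replicate numbers gave no sign of pairing, with correlations of same-numbered deviations of −0.077, 0.024 and −0.088. Over differently numbered libraries the highest was 0.11 (scramble replicate 3 with siDYRK2 replicate 1). How the cultures were set up cannot be read from these values, and the block uses the number alone. With the block, 2495 genes were called higher and 2321 lower, against 3079 and 2714 without it. Rescaling or quantile normalization moved the median of all genes to 0.016 at most.

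Differences that were not called changed sign with the library left out: CD83 from −0.030 to 0.071, FOXP4 from −0.068 to 0.019, NKX2-1-AS1 from −0.096 to 0.21, IFIT1 from −0.035 to 0.13 and GATA6 from −0.026 to 0.13. Without a filter on low values LMO3, IFIT3, CPM, LPCAT1 and ETV4 lost their calls, with more genes in the adjustment. CPM and LPCAT1 lost theirs with the replicate block (adjusted p = 0.094 and 0.056), CPM and ETV4 with quantile normalization (0.055 and 0.0996), and LMO3, LPCAT1 and ETV4 without the mean-variance trend (0.064, 0.073 and 0.068), a fit in which CTSH (0.031) and MX1 (0.037) were called lower. Values of FOXA2, SFTPC and the second SFTA3 row are limited by the 2 printed decimals.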
